A study of Mus musculus with 22 samples.

Results

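Zic1, Zic2, Zic4 and Zic5 are 4 genes of the Zic family of zinc finger transcription factors. Their rows were taken by symbol from the gene tables of 22 RNA-seq libraries, in which 19721 genes were listed in at least 1 library. All 4 members were listed in all 22 libraries, and all 4 were kept by the filter on low counts in each comparison. The files give them Entrez gene IDs 22771 (Zic1), 22772 (Zic2), 22774 (Zic4) and 65100 (Zic5).

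Zic proteins bind DNA through tandem C2H2 zinc fingers that resemble those of the Gli proteins, the transcription factors at the end of the Hedgehog pathway. Zic2 is known from pluripotent cells, where it acts at enhancers as cells leave the naive state, and from the neural plate, where it is needed for closure of the neural tube and for forebrain midline development. Zic1 and Zic4 are known from the dorsal neural tube and the cerebellum, and Zic5 from the dorsal neural tube and neural crest.

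The cells were J1 mouse embryonic stem (ES) cells, an established line, and embryoid bodies, the aggregates in which ES cells differentiate. Embryoid bodies were exposed to tetrabromobisphenol A (TBBPA), a brominated flame retardant, and 6 stages were sampled: ES cells without treatment (2 libraries) and days 4, 9, 12, 18 and 28 (D4 to D28). At each day there were 2 libraries with 0.1% DMSO, 1 with 10 nM TBBPA and 1 with 100 nM TBBPA, and the labels of the TBBPA libraries name no solvent. The control step comparisons used the ES and DMSO libraries, and the TBBPA comparison at a day took both doses together as 2 samples and set them against that day's DMSO pair. The labels do not say whether replicate libraries were made from separate cultures. If they were not, the p-values of the control steps measure only technical spread between these libraries. In the TBBPA comparisons at a day, the spread also holds any difference between the 2 doses. In RNA of whole embryoid bodies, fewer cells of a type and less RNA per cell cannot be told apart.

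Total expected counts were 18158583 to 18998141 per library, and 16427 to 17816 genes were listed in each. The ES label was matched by its markers: the summed FPKM (the authors' level per gene length and library depth) of 7 ES cell genes was 2325 to 2485 in ES cells and 862.9 to 900.5 at D4 with DMSO. The ES pair stood apart in its replicate spread, with a mean chi-square per gene of 22.5 (1 is the value of pure sampling noise), against 1.63 to 3.38 for the 5 DMSO pairs. On that measure the libraries of the 2 doses differed by 3.26 to 7.95 at a day.

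The 4 genes lie in a pair of clusters, which is shown first because the genes of a cluster had the most similar courses. Zic1 is on the minus strand and Zic4 on the plus strand of mouse chromosome 9, and each is the nearest coding gene on the other's 5′ side. Zic5 (minus strand) and Zic2 (plus strand) are neighbouring coding genes on chromosome 14, with the long noncoding RNA gene 2610035F20Rik annotated between them. Promoter sequences of Zic1, Zic4 and Zic5 are in the RefSeq table of build GRCm38.p6, each running from 250 bases before the annotated start to 50 bases after it, 5′ to 3′ on the strand of the gene. The windows are chr9:91365719-91366018 (minus strand, Zic1), chr9:91368722-91369021 (plus strand, Zic4) and chr14:122465609-122465908 (minus strand, Zic5). Capitals mark CG dinucleotides.
Zic1: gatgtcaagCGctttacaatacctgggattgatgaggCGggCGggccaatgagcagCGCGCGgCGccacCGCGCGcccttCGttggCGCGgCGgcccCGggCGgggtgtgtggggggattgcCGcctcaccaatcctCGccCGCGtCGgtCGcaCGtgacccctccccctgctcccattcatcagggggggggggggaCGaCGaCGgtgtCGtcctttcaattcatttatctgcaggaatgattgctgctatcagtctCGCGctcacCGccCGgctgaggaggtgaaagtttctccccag
Zic4: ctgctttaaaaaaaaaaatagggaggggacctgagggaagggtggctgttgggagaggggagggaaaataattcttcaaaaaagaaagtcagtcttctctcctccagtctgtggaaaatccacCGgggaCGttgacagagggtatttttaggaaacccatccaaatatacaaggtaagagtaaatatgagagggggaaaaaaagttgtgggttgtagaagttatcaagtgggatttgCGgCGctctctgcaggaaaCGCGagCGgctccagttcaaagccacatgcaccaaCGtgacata
Zic5: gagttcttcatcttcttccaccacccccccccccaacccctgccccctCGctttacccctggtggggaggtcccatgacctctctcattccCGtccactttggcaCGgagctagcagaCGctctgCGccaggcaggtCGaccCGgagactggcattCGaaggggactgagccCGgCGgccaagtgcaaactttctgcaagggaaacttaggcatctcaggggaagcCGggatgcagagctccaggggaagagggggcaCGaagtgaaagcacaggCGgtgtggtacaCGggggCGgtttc
The Zic1 window held 31 CG dinucleotides and 65.3% G and C, and 10.6% of the 32851 promoter windows of the table held at least as many CG dinucleotides. Its neighbour Zic4 differed in composition, with 8 CG dinucleotides and 46% G and C. For Zic5 the values were 15 and 62.7%, beside medians of 7 and 52.7% over all windows. The CCAAT box, searched as CCAAT on both strands, was found at 2 places in the Zic1 window and in 37.4% of all windows. The Gli consensus GACCACCCA (0.253% of all windows) and the shorter Zic core CCTGCTG (10.5%), both searched on both strands, had no match in the windows of the 3 members.

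Because the 4 genes have similar zinc finger coding sequences, the longest identical stretches of their coding sequences (GENCODE vM21) were also read, 5′ to 3′ on the coding strand. Zic1 and Zic4 share 42 bases, at bases 729 to 770 of the Zic1 coding sequence, of which the first 30, in capitals, are also the longest stretch shared by Zic2 and Zic4.
Zic1 and Zic4: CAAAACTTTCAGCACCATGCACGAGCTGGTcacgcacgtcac
Zic1 and Zic2 share 35 bases, and the pairs with Zic5 share 20 to 26. No pair shares a run of 50 bases. Of the 12 annotated Zic4 transcripts, 1 overlaps an exon of Zic1 on the opposite strand, and the sources used here do not state whether strand was used in counting. Zic1 had a whole-number expected count in 1 of 22 libraries and Zic4 in 5, against 21 of 22 for Zic2 and for Zic5. Over all genes 64.9 to 66.7% of the expected counts of a library were whole, and how far shared reads move the levels of Zic1 and Zic4 was not tested.

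In the control libraries Zic2 and Zic5 were highest at D4. Zic2, the most abundant of the 4 at the early stages, had FPKM values of 10.83 and 9.91 in ES cells, 83.1 and 88.4 at D4, 17.45 and 18.46 at D9, 14.27 and 15.46 at D12, 21.88 and 22.71 at D18, and 19.07 and 19.54 at D28. Zic5 had 3.54 and 2.79 in ES cells, 14.98 and 13.87 at D4, 2.96 and 2.8 at D9, 2.87 and 2.77 at D12, 3.53 and 3.67 at D18, and 2.31 and 2.79 at D28. Both D4 libraries lay far above the libraries of every other stage in both genes.

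**Figure D1:**
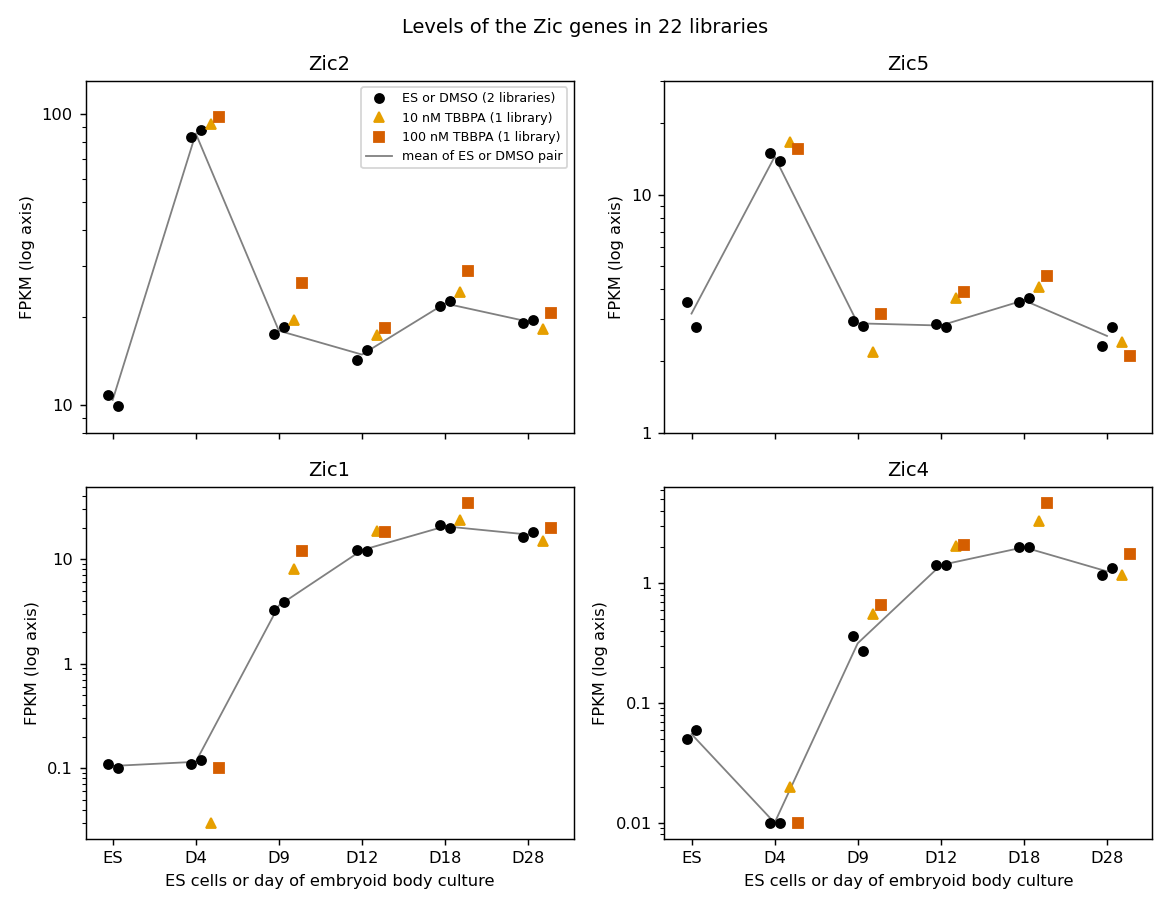
FPKM on a log axis against stage for each gene, with 1 point per library (circles for ES or DMSO, triangles for 10 nM and squares for 100 nM TBBPA) and a line through the mean of each control pair. Zic2 and Zic5 peak at D4, and Zic1 and Zic4 climb from D9 to D18. The TBBPA points of Zic1, Zic2 and Zic4 lie above the DMSO points at D9, D12 and D18. Those of Zic5 do at D12 and D18, and those of Zic2 and Zic5 do at D4. In CPM, 24.6% of 15217 genes lay above at D4, 25.0% at D9, 39.3% at D12 and 33.3% at D18.

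From ES cells to D4, Zic2 rose by 3.02 on the log2 scale (SE 0.07, edgeR adjusted p = 2.61e-13) and Zic5 by 2.16 (SE 0.13, adjusted p = 2.92e-09). This was a step in which 62.3% of the 16203 genes tested passed in either direction. Zic1 did not pass (log2 change 0.17, SE 0.41, adjusted p = 0.803). Zic4 passed with a log2 change of -2.07 (adjusted p = 0.0432), but it rests on expected counts of 4 and 5.01 in ES cells and 0.88 and 1 at D4. The ratio of the summed counts, ES over D4, was 4.47 with an exact 95% counting interval of 0.925 to 42.5, and the call was lost when any 1 of the 4 libraries was left out (adjusted p 0.0579 to 0.129).

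From D4 to D9 the order of the family changed. Zic2 fell by 2.40 (SE 0.07, adjusted p = 1.75e-12) and Zic5 fell by 2.46 (SE 0.13, adjusted p = 1.13e-09), while Zic1 rose by 4.84 (SE 0.19, adjusted p = 4.19e-11). Zic4 rose as well (adjusted p = 2.25e-06), from counts of 0.88 and 1 to 29.42 and 23.01, a ratio of summed counts of 25.6 (exact 95% counting interval 6.73 to 217). All 4 members passed in this step, in which 60.8% of all genes passed. Scaling by library size alone moved the median of all genes to 0.15, against 0.01 with the scaling used, and changed no direction here.

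The later rise of Zic1 and Zic4 went on to D18. In FPKM, Zic1 was at 0.11 and 0.10 in ES cells, 0.11 and 0.12 at D4, 3.29 and 3.91 at D9, 12.34 and 12.05 at D12, 21.21 and 20 at D18, and 16.3 and 18.06 at D28. For Zic4 the values were 0.05 and 0.06, 0.01 and 0.01, 0.36 and 0.27, 1.41 and 1.42, 2.0 and 1.99, and 1.16 and 1.35 at the same stages. The pairs of successive stages did not overlap from D4 to D28 in either gene.

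Between D9 and D12, where 33.1% of all genes passed, 3 members did: Zic1 rose by 1.73 (SE 0.09, adjusted p = 1.25e-08), Zic4 rose by 2.05 (SE 0.19, adjusted p = 3.48e-06) and Zic2 fell by 0.33 (SE 0.07, adjusted p = 0.0022). Zic5 had a log2 change of -0.09 (adjusted p = 0.676). Between D12 and D18 (37.7% of all genes, 20.7% as higher), Zic1 rose by 0.76 (SE 0.08, adjusted p = 2.54e-06), Zic2 by 0.55 (SE 0.07, adjusted p = 2.55e-05) and Zic4 by 0.46 (SE 0.15, adjusted p = 0.0266), and Zic5 did not pass (0.31, adjusted p = 0.101). The Zic4 call of this step was lost when any 1 of its 4 libraries was left out (adjusted p 0.101 to 0.119).

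From D18 to D28 all 4 members fell, in a step in which 53% of all genes passed and 28.1% passed as lower. Zic4 fell by 0.61 (SE 0.15, adjusted p = 0.00368), Zic5 by 0.54 (SE 0.15, adjusted p = 0.00636), and Zic1 and Zic2 each fell by 0.24 (SE 0.07 for both, adjusted p = 0.0125 and 0.00897). The falls are small, and without DMSO replicate 1 of D28 none of the 4 passed (Zic1 -0.17, Zic2 -0.21, Zic4 -0.50, Zic5 -0.41, adjusted p 0.0548 to 0.166). DESeq2 called 2 of them, Zic2 and Zic5.

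Over all 15 pairs of control stages, some neighbours in the order of levels did not differ beyond their spread. In CPM, Zic2 ran from D4 down through D18, D9, D28 and D12 to ES cells, and D9 and D28 could not be separated (log2 change from D9 to D28 -0.02, adjusted p = 0.768). Zic1 ran from D18 through D28, D12 and D9 to D4 and ES cells, which could not be separated. In Zic4 the D12 and D28 levels did not differ beyond their spread (log2 change -0.15, adjusted p = 0.409). Zic5 had few separable levels outside D4: the comparisons of ES cells with D9, ES cells with D18, D9 with D12, D18 or D28, and D12 with D18 or D28 did not pass, with adjusted p of 0.0682 to 0.676, while 3 pairs passed: ES cells with D12 (log2 change -0.40, adjusted p = 0.0219), ES cells with D28 (-0.62, adjusted p = 0.00124) and D18 with D28 (-0.54, adjusted p = 0.00636).

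The makeup of the family changed with the stage. Per length, the sum of the 4 FPKM values was 12.86 and 14.53 in ES cells, 98.2 and 102.4 at D4 with DMSO, 24.06 and 25.44 at D9, 30.89 and 31.7 at D12, 48.62 and 48.37 at D18, and 38.84 and 41.74 at D28. Zic1 and Zic4 together held 0.122 and 0.127% of that sum at D4, 15.2 and 16.4% at D9, and 42.5 to 47.7% in the DMSO libraries of D12, D18 and D28. Zic2 exceeded Zic1 737 and 755 times in FPKM at D4 and 1.03 to 1.28 times in the DMSO libraries from D12 on. Over all 22 libraries the ratio of Zic2 to Zic5 moved less, at 3.06 to 9.82, than that of Zic2 to Zic1, at 0.842 to 3080. From D12 on the ratio of Zic2 to Zic1 was the narrower, at 0.842 to 1.28, beside 4.7 to 9.82 for Zic2 to Zic5. Zic1 stood at 1.5 to 17.9 times Zic4 in all 22 libraries and at 7.28 to 17.9 times in the 16 from D9 on. Before D9, Zic4 had at most 5.01 expected counts a library.

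**Figure D2:**
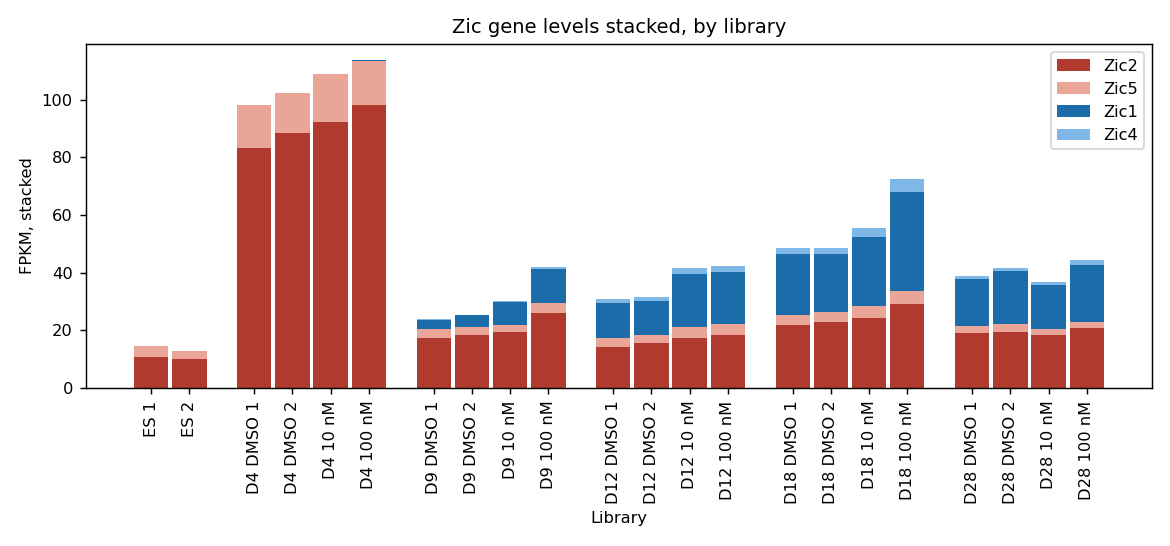
FPKM of the 4 genes stacked in 1 bar for each of the 22 libraries, in the order of the stages. The bars of ES cells and D4 are almost all Zic2 and Zic5, and from D12 on Zic1 and Zic4 make up 42.5 to 53.8% of each bar.

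Across the 22 libraries, on log2 CPM (counts scaled to library depth), Zic1 and Zic4 had a Pearson r of 0.957 and Zic2 and Zic5 of 0.93. The cross pairs had r of -0.517 to -0.73, and over the 12 control libraries the same values were 0.974, 0.926 and -0.404 to -0.673. These are descriptions: libraries of the same day share their stage, and the 22 points form 6 stages. Of the 11787 other genes whose mean reached 2 log2 CPM, 200 had a higher r with Zic1 than Zic4 had, and 25 had a higher r with Zic2 than Zic5 had.

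Genes with courses most like the members were named by r over the 22 libraries. For Zic1 they were Rfx4, a transcription factor of the developing brain (0.99), Sdc3, a heparan sulfate proteoglycan of neural tissue (0.988), the homeobox gene Meis1 (0.986), Amer2 (0.986) and Fam171a2 (0.986). For Zic4 they were Fabp7, a lipid-binding protein made by radial glia (0.982), Chgb, a protein of secretory granules (0.981), the POU factor Pou3f3 (0.981), Nsg1 (0.98) and Podxl2 (0.978). Zic2 was most like Ppp4r4 (0.98), Psme1 and Psme2 (0.98 and 0.96), both subunits of a proteasome activator, Sec22a (0.963) and Idnk (0.959). For Zic5 the genes were Pdzd4 (0.978), Usf1 (0.969), Isyna1 (0.964), Mapk4 (0.961) and Chd9 (0.958). The lowest r were those of Cyb5r1 (-0.988) and Slc20a1 (-0.986) with Zic1, Ccnd3, the cyclin D3 gene (-0.991), and Rell1 (-0.978) with Zic2, Swap70 (-0.978) and Usp36 (-0.968) with Zic4, and Mfsd12 (-0.974) and Magt1 (-0.965) with Zic5. The rankings move with the libraries used: of the 5 highest genes, 1 for Zic1, 3 for Zic2, 2 for Zic4 and 1 for Zic5 were also among the 5 highest over the 12 control libraries.

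Other genes of these stages are given from lists of textbook markers. Some lists share genes, among them Foxa2 (ventral neural tube and endoderm) and Sox2 (ES cell and neural progenitor). Of 10 primed epiblast genes, which mark the stage between naive ES cells and the germ layers, 7 rose and 2 fell from ES cells to D4 (median log2 change 2.93, against 0.001 over all genes) and 9 fell from D4 to D9 (median -2.20, against 0.01). Fgf5, a growth factor gene of the epiblast, had log2 changes of 11.98 (SE 0.21) and -3.08 (SE 0.09) in these steps, and the POU factor Pou3f1 had 5.46 (SE 0.13) and -2.69 (SE 0.10). Zic2 and Zic5 had the same direction in both steps. From ES cells to D4, 31.9% of all genes passed as higher and 30.3% as lower. From D4 to D9, 28.9% passed as lower.

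At the step from D4 to D9, in which Zic1 and Zic4 rose, 31.9% of 16203 genes passed as higher and 28.9% as lower. Of 15 tested genes of the dorsal neural tube and roof plate, 14 rose and 1 fell (median 4.42). All 8 of the ventral neural tube rose (3.86). Of 10 neural crest genes, 8 rose and 1 fell (3.15), and of 16 neural plate and progenitor genes, 11 rose and 4 fell (2.25). The dorsal factor Pax3 rose by 5.67 (SE 0.30) and the neural progenitor factor Sox1 by 4.28 (SE 0.13). Wnt1 of the dorsal midline rose by 12.29 (SE 0.35). Wnt1 was at 0 FPKM in both D4 libraries with DMSO, so the size of its rise is not well measured. Mesenchymal and meningeal genes rose in 10 of 12 cases (3.99) and yolk sac and endoderm genes in 10 of 10 (2.94), so the rise was not limited to neural lists. Among somite and muscle genes, another known site of Zic expression, 1 of 7 tested rose and 1 fell, and their summed FPKM was 3.22 to 3.61 at D9 with DMSO.

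After D12 the neural lists moved in different directions. Over all genes, 17.5% passed as higher and 15.6% as lower from D9 to D12. From D12 to D18 these shares were 20.7% and 17.1%, and from D18 to D28 they were 24.9% and 28.1%. All 10 pan-neuronal genes rose from D9 to D12 (median 1.70) and from D12 to D18 (1.31) and fell from D18 to D28 (-2.20), among them Map2, a microtubule protein of neurons, at 2.15, 1.28 and -1.87 in these steps. Zic1 and Zic4 had the same directions, with log2 changes of -0.24 and -0.61 at the end. From D12 to D18, in which Zic1 and Zic4 rose, 1 of 15 dorsal neural tube genes rose and 7 fell (median -0.53), 2 of 16 neural plate and progenitor genes rose and 5 fell (-0.27), and 2 of 8 ventral genes rose and 3 fell (-0.01). From D18 to D28 these 3 lists fell in 8, 12 and 5 cases and rose in 4, 1 and 0. At D28 the mesenchyme and meninges list was at its highest, with a summed FPKM of 1438 to 1472 against 492.2 to 523.9 at D18 and 9 of 12 members higher. Its part in the levels of the Zic genes was not tested.

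The Gli relatives and the Hedgehog pathway were read beside the family. Over all genes, 31.9% passed as higher from D4 to D9. From D18 to D28, 24.9% passed as higher and 28.1% as lower. From D4 to D9, 5 of 6 Gli and Glis genes and 8 of 10 Hedgehog genes rose (medians 0.87 and 1.39), among them the ligand Shh (9.75, SE 0.33), the receptor and target Ptch1 (1.37, SE 0.06) and the target Gli1 (3.29, SE 0.13). From D18 to D28, Shh had a log2 change of -2.47 (SE 0.14), Gli1 of -1.51 (SE 0.11) and Ptch1 of -0.76 (SE 0.06), and the lists moved in both directions, with 2 higher and 3 lower of 6 and 4 higher and 4 lower of 10.

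**Figure D3:**
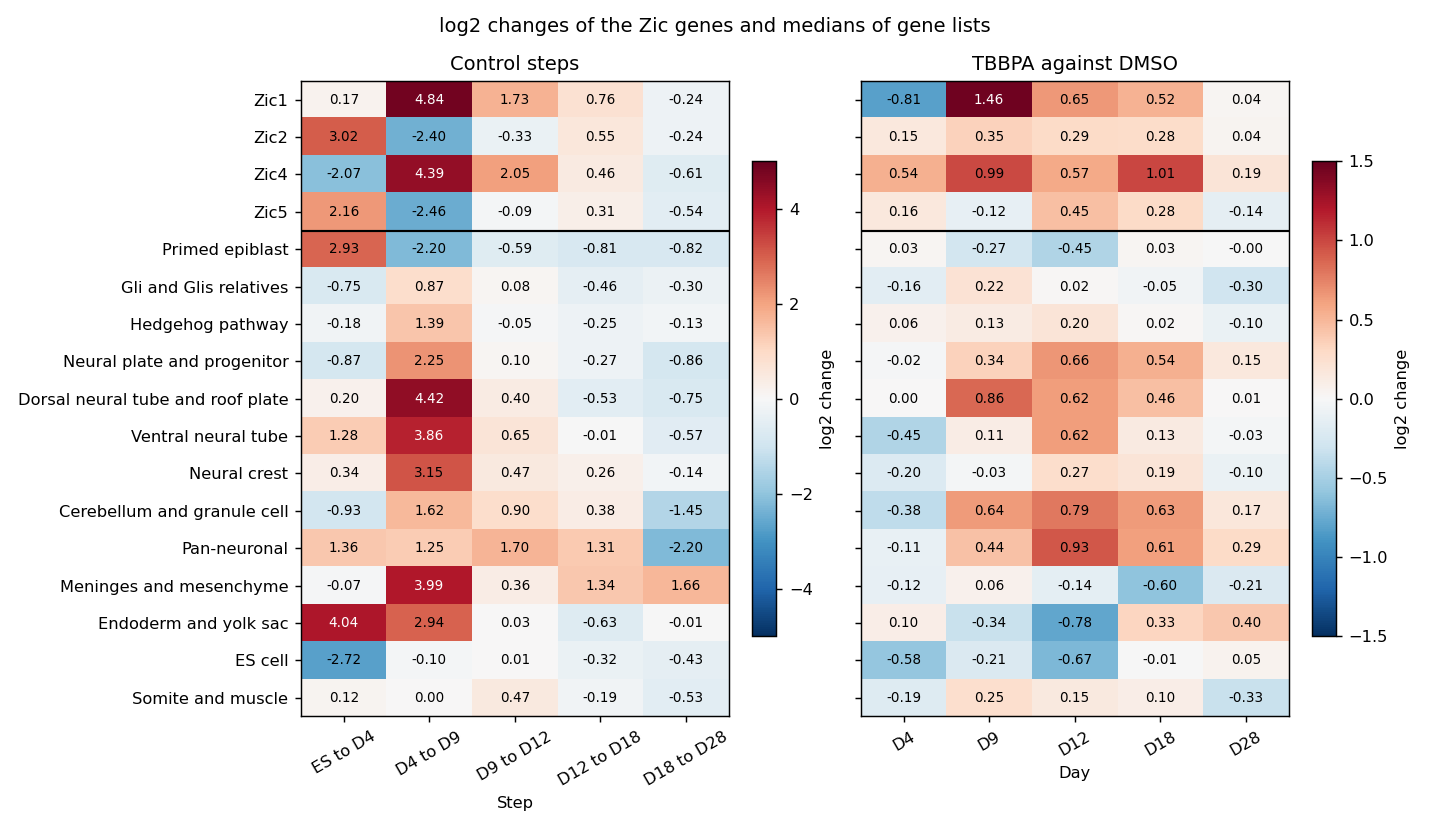
log2 changes of the 4 genes (above the line) and medians over the tested genes of each marker list (below it), for the 5 control steps on the left and TBBPA against DMSO at the 5 days on the right, with a wider colour scale on the left. Zic1 and Zic4 share the sign of the neural progenitor, dorsal, ventral, cerebellar and pan-neuronal medians at D9, D12 and D18 with TBBPA. The Hedgehog medians (0.13, 0.20 and 0.02) and the somite and muscle medians (0.25, 0.15 and 0.10) have that sign too. The neural crest median is -0.03 at D9, 0.27 at D12 and 0.19 at D18. The D28 values of all 4 genes are between -0.14 and 0.19.

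The effect of TBBPA was asked at each day. In the edgeR fit of the 22 libraries, Zic1 was higher with TBBPA at D9, D12 and D18, Zic4 at D12 and D18, and Zic5 at D12. Zic2 did not pass at any day in that fit, though it did at D9 and D12 in alternatives given below. At D4 and D28 none of the 4 passed. In every passing case the member was higher.

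At D9, Zic1 was at 3.29 and 3.91 FPKM with DMSO, 8.02 with 10 nM and 11.83 with 100 nM. Both TBBPA libraries lay above both DMSO libraries, at 2.24 and 3.28 times the DMSO mean in CPM, as 25.0% of 15217 genes lay above. The log2 change was 1.46 (SE 0.19, edgeR adjusted p = 0.000706), and Zic1 was the only member to pass where 2.34% of 16383 genes did, 1.37% as higher. Zic4 was at 0.36 and 0.27, then 0.55 and 0.66 FPKM, with a log2 change of 0.99 (SE 0.27, adjusted p = 0.0539), and Zic2 was at 17.45 and 18.46, then 19.49 and 26.14 (0.35, SE 0.11, adjusted p = 0.106). Zic5 was at 2.96 and 2.8, then 2.18 and 3.14, on both sides of the DMSO pair (-0.12, adjusted p = 0.849). The Zic1 call held when either DMSO library was left out (adjusted p 0.014 to 0.0239) and was lost when the DMSO pairs were summed to 1 library each and the ES libraries left out (adjusted p = 0.167). Without the ES libraries Zic4 passed as well (0.99, adjusted p = 0.0323). With DESeq2, Zic2 passed (0.36, adjusted p = 0.0483), and with 100 nM alone its log2 change was 0.55.

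At D12 the values of all 4 members were above both DMSO libraries in both TBBPA libraries, a pattern that 39.3% of 15217 genes showed. Zic1 was at 12.34 and 12.05 FPKM with DMSO and at 18.59 and 18.13 with 10 and 100 nM, a log2 change of 0.65 (SE 0.17, adjusted p = 0.0112). Zic4 was at 1.41 and 1.42, then 2.03 and 2.08 (0.57, SE 0.19, adjusted p = 0.0355). For Zic5 the values were 2.87 and 2.77, then 3.68 and 3.9 (0.45, SE 0.15, adjusted p = 0.0419). The 2 doses gave nearly the same value in these 3 genes. Zic2, at 14.27 and 15.46, then 17.39 and 18.32, did not pass (0.29, SE 0.11, adjusted p = 0.0651). The 3 calls stand where 21.1% of all genes passed and 11.9% passed as higher, and none of them was kept when either DMSO library was left out (adjusted p 0.0635 to 0.187). DESeq2 called Zic1 alone. With only the 4 libraries of the day in the edgeR fit, Zic2 passed (0.26, adjusted p = 0.00607).

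At D18, where 10.5% of all genes passed and 5.96% passed as higher, the highest library of all 22 for Zic1 and for Zic4 was the one with 100 nM. Zic4 was at 2.0 and 1.99 FPKM with DMSO, 3.28 with 10 nM and 4.66 with 100 nM, which is 1.69 and 2.35 times the DMSO mean in CPM. Its log2 change was 1.01 (SE 0.18, adjusted p = 0.00063), and it passed in each alternative that was run (0.72 to 1.23, adjusted p 0.000101 to 0.0285). Zic1 was at 21.21 and 20, then 23.87 and 34.36, with a log2 change of 0.52 (SE 0.16, adjusted p = 0.0478). This call was lost without either DMSO library (adjusted p 0.177 to 0.222), without the ES libraries (0.0717) and with 10 nM alone (0.416). All 4 members again had both TBBPA libraries above both DMSO libraries, as 33.3% of all genes did, and Zic2 (0.28, adjusted p = 0.106) and Zic5 (0.28, adjusted p = 0.267) did not pass.

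No member passed at the first or the last day. In CPM at D4, both TBBPA libraries of Zic2, Zic4 and Zic5 lay above both DMSO libraries, and those of Zic1 lay below. Over 15217 genes, 24.6% lay above and 21.8% below. At D4, where 0.458% of all genes passed, Zic2 was at 83.1 and 88.4 FPKM with DMSO and at 92.36 and 98.04 with TBBPA (0.16, SE 0.10, adjusted p = 0.639), and Zic5 at 14.98 and 13.87, then 16.6 and 15.51 (0.16, SE 0.12, adjusted p = 0.727). Zic1 had at most 7.64 and Zic4 at most 2 expected counts in a D4 library, which limits what can be seen there: the ratio of summed Zic1 counts, DMSO over TBBPA, was 1.67 with an exact 95% counting interval of 0.684 to 4.32, and Zic4 was at or under 3 counts throughout. At D28, where 7.09% of all genes passed, the TBBPA libraries of each member overlapped the DMSO pair or lay on both sides of it, while over all genes both TBBPA libraries lay above in 29.9% and below in 25.5%. Zic1 was at 16.3 and 18.06, then 15.01 and 19.88 (0.04, SE 0.16, adjusted p = 0.938), and Zic4 at 1.16 and 1.35, then 1.17 and 1.76 (0.19, SE 0.20, adjusted p = 0.643). Zic2 was at 19.07 and 19.54, then 18.19 and 20.72, and Zic5 at 2.31 and 2.79, then 2.4 and 2.11. At D4 and at D28 no member had an unadjusted p under the threshold of 0.05, and DESeq2 called none.

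**Figure D4:**
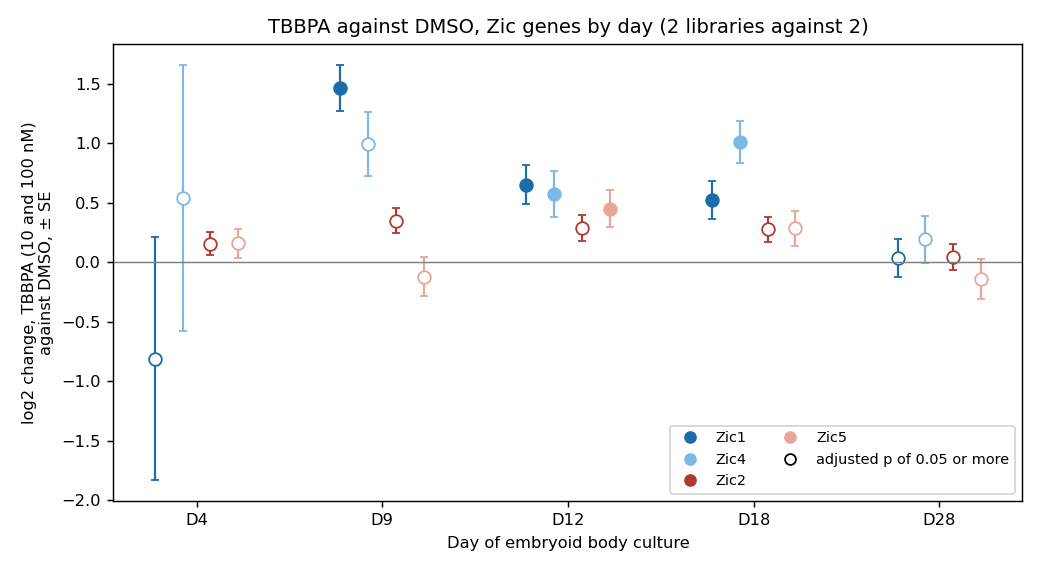
log2 change of the mean of the 10 nM and 100 nM libraries against the DMSO pair, with its SE, for each gene and day. Filled points passed the threshold, and the wide bars of Zic1 and Zic4 at D4 come from at most 7.64 expected counts a library.

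Whether the effect differed between the 5 days was tested in the same fit, in which 10.4% of genes passed. Zic1 passed (adjusted p = 0.0149), with effects of 1.46 at D9, 0.65 at D12, 0.52 at D18 and 0.04 at D28. Zic4 (adjusted p = 0.209), Zic5 (0.232) and Zic2 (0.526) did not. The effect at D28 minus that at D12 passed for no member and for 11% of all genes. It was -0.62 for Zic1 (SE 0.23, adjusted p = 0.11) and -0.59 for Zic5 (SE 0.23, adjusted p = 0.108), and 2 members had an unadjusted p under 0.05. DESeq2 called none of the 4 in this comparison.

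Over the 5 days, each dose was set against DMSO with the day as a term. These comparisons share the DMSO libraries, so their values are given side by side. With 10 nM, Zic4 rose by 0.49 (SE 0.13, adjusted p = 0.0158) where 13.4% of genes passed (7.3% as higher), and Zic1 (0.43, SE 0.16, adjusted p = 0.0967), Zic2 (0.12, SE 0.04, adjusted p = 0.0593) and Zic5 (0.11, adjusted p = 0.451) did not pass. With 100 nM (15.2% of genes, 7.45% as higher), Zic4 rose by 0.85 (SE 0.12, adjusted p = 0.000452), Zic1 by 0.78 (SE 0.16, adjusted p = 0.00806) and Zic2 by 0.32 (SE 0.05, adjusted p = 0.000614), and Zic5 did not pass (0.18, adjusted p = 0.152). With both doses together (22.1% of genes, 11.7% as higher), Zic1, Zic2 and Zic4 rose, by 0.59 (SE 0.14, adjusted p = 0.00807), 0.22 (SE 0.04, adjusted p = 0.000702) and 0.66 (SE 0.11, adjusted p = 0.000265). The Zic1 call with both doses was lost without day 12 (adjusted p = 0.0626), with the DMSO pairs summed (0.0649) and with limma on log2(FPKM + 0.1) (0.0702).

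The call of Zic4 with 10 nM was lost without day 9 (adjusted p = 0.0543), 12 (0.0802) or 18 (0.204), and its adjusted p ran from 0.000566 to 0.204 over the alternatives with the day as a term. Without day 28, Zic1, Zic2 and Zic4 all passed with 10 nM. The 100 nM call of Zic1 was lost without day 18 (0.0552), and all 3 calls with 100 nM were lost with the DMSO pairs summed (0.0543 to 0.0866).

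The doses themselves were compared with each other over the days. The log2 difference, 100 nM minus 10 nM, was 0.36 for Zic1 (SE 0.19, adjusted p = 0.83), 0.20 for Zic2 (SE 0.06, adjusted p = 0.433), 0.35 for Zic4 (SE 0.15, adjusted p = 0.739) and 0.08 for Zic5 (SE 0.11, adjusted p = 0.962). No gene passed of 16059, with edgeR, and 1025 genes had an unadjusted p under 0.05, among them Zic2 (0.00158) and Zic4 (0.0242). DESeq2 called 7 genes, and limma on log2(FPKM + 1) called 2. At D12 the doses gave like values in the 4 genes, and at D9 and D18 the library with 100 nM was the higher in each, but a dose at a day is 1 library and the difference at a day was not tested.

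Marker genes of other cells moved on the same days. Over all genes, 1.37% passed as higher at D9, 11.9% at D12, 5.96% at D18 and 3.65% at D28. At D9, 7 of 16 dorsal neural tube genes were higher with TBBPA and none lower (median 0.86, against 0 over all genes), among them Wnt1 (0.89, SE 0.11, adjusted p = 0.000135), Rspo1, a secreted enhancer of Wnt signalling (1.41, SE 0.18, adjusted p = 0.000135), and Pax7 (1.29, SE 0.26, adjusted p = 0.00965). None of the 8 ventral genes passed at D9 (median 0.11). The difference between the lists was not tested. Pan-neuronal genes were higher in 3 of 10 cases at D9, 9 of 10 at D12 (median 0.93, against 0.03 over all genes) and 10 of 10 at D18 (0.61, against 0.02), and their summed FPKM at D12 was 140 to 145.6 with DMSO and 271.5 to 288.2 with TBBPA. At D28 it was 54.42 to 58.81 and 65.09 to 71.75, with 2 of 10 higher.

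Neural progenitor genes were higher in 4 of 16 cases at D9, 11 at D12 (median 0.66) and 9 at D18 (0.54). Pou3f2 was at 0.68, 1.04 and 0.87 on these days. Over all genes, 1.37%, 11.9% and 5.96% passed as higher on the same days. Of 10 tested cerebellum and granule cell genes, the lineage for which Zic1 and Zic4 are best known, 6 were higher at D12 and 5 at D18 (medians 0.79 and 0.63), among them the homeobox gene Barhl2 (1.22, SE 0.20, adjusted p = 0.000151 at D12). Ventral genes were higher in 5 of 8 cases at D12 (0.62). None of these 3 lists had a member lower at D12. At D18 and at D28 the ventral list had 2 of 8 genes higher and 1 lower. On those days 5.96% and 3.65% of all genes passed as higher and 4.56% and 3.44% as lower. The lower gene was Nkx2-1 on both days (-1.095, SE 0.25, edgeR adjusted p = 0.0057, and -1.86, SE 0.28, adjusted p = 0.000445). Of 10 neural crest genes, 2 were higher and none lower at D9. At D12, 2 of them were higher and 1 lower, and at D18, 4 were higher and 1 lower.

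Lists of other tissues had members lower on some days. Yolk sac and endoderm genes were lower in 6 of 10 cases and higher in 1 at D12. Over all genes that day, 9.19% passed as lower and 11.9% as higher. The summed FPKM of the yolk sac and endoderm list was 552.7 to 553.8 with DMSO and 285.2 to 338.2 with TBBPA. Its higher gene was Foxa2 (0.43, SE 0.10, edgeR adjusted p = 0.0035), which is counted in the ventral list too. ES cell genes were lower in 6 of 7 cases and higher in 1 that day. The yolk sac and endoderm list had 2 of 10 genes higher and none lower at D18 and 4 of 10 higher and none lower at D28, with 301.6 to 306.8 FPKM against 392.3 to 395.7. Mesenchyme and meninges genes were lower in 7 of 12 cases at D18, with 492.2 to 523.9 FPKM against 238.9 to 363. At D28 they were lower in 2 of 12, with 1438 to 1472 against 954.1 to 1022. Over all genes, 4.56% passed as lower at D18 and 3.44% at D28, and 5.96% and 3.65% passed as higher. The part of these shifts in cell makeup in the Zic values was not tested. Hedgehog genes passed as higher in 3 of 10 cases at D9, where 1.37% of all genes did. These were the coreceptor genes Gas1 (0.78, SE 0.13), Boc (0.53, SE 0.12) and Cdon (0.43, SE 0.07). The 2 Hedgehog genes lower at D28 were Boc (-0.42, SE 0.10) and Cdon (-0.34, SE 0.08).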

How the data were processed

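The 22 tables hold, per gene, an expected count and an FPKM value. The expected counts were estimated and the FPKM values made by the authors, per the file headers. HISAT, Bowtie2 and build GRCm38.p5 are named in the submitters' processing notes (counting tool: not given in the sources used here). Genes that a table does not list were set to 0. Groups came from treatments and titles, the number after D read as the day.

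Expected counts were rounded and tested with edgeR 4.0.16 (R 4.3.3; TMM scaling; filterByExpr, minimum count 10 and total 15; robust quasi-likelihood F tests), with Benjamini-Hochberg adjustment over all genes and a threshold of 0.05. Control steps used 1 fit of 12 libraries (6 residual degrees of freedom), and TBBPA by day 1 fit of 22 libraries (11). Doses over the days had day as a term (9 or 13). Each SE was derived from the log2 change and its F statistic. Total counts of 18158583 to 18998141 limit the precision of low genes, and counting intervals cover counting error only. Likeness is Pearson r on log2(CPM + 1).

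The members and gene lists were chosen with earlier results of these data known. All 4 members are named in each comparison; of a list, values are given for some of its 3 genes of smallest p. Alternatives were DESeq2 1.42.0, other scalings and filters, limma 3.58.1 on log2(FPKM + 1) and log2(FPKM + 0.1), libraries or doses left out, no day term and a replicate block; those without ES libraries or with DMSO pairs summed were chosen after seeing the data. Promoters are from RefSeq (GRCm38.p6). Figures used matplotlib 3.10.9.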

Additional observations from a re-analysis of the deposited data

Results flagged for a closer look

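The effect of TBBPA on Zic1 differed between the days by the test of the difference itself (edgeR adjusted p = 0.0149, against 10.4% of all genes passing). The log2 change was 1.46 at D9, 0.65 at D12, 0.52 at D18 and 0.04 at D28, and at D4 it was -0.81 with an SE of 1.02. The call was lost with each DMSO pair summed to 1 library and the ES libraries left out (adjusted p = 0.423, in a range over the alternatives of 1.73e-06 to 0.423).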

How the results depend on the processing

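Of 229 alternative counts of members called, 189 stayed within the limit of 1.5 times the reported count and 40 moved. Of 912 alternative values of single members, 813 kept direction and side of the threshold, 82 kept the direction and lost the call, 11 gained one and 6 reversed; the cause was not tested.

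The 4 falls from D18 to D28 became 2 with DESeq2 and ran from 0 to 4 when 1 library was left out. At D9 with TBBPA the single call became 2 with DESeq2, DESeq2 size factors, 100 nM alone or without the ES libraries, and 0 with each DMSO pair summed. The 3 calls at D12 became 1 with DESeq2 and with limma on log2(FPKM + 1) without a filter. They became 0 with limma on log2(FPKM + 0.1), with 10 nM alone, with 100 nM alone, with each DMSO pair summed and without either DMSO library (0 to 0). The 2 calls at D18 became 1 with library size alone, without a filter on counts, with the 3 limma settings, with the 4 libraries of the day alone, with 10 nM alone, without the ES libraries, with the DMSO pairs summed and without either DMSO library (1 to 1); Zic4 was the call left in each. The member whose effect differed between days became 2 with limma on log2(FPKM + 1) and 0 with the pairs summed. Over the days, the single 10 nM call became 0 with the 3 limma settings, the pairs summed, no day term or without day 9, 12 or 18, and 3 without day 28. The 3 calls with 100 nM became 0 with the pairs summed or no day term, and the 3 with both doses became 0 with no day term.

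Reversed values were all of members that did not pass: Zic5 at D9 with 100 nM alone (0.12), Zic1 at D28 without DMSO replicate 1 (-0.047), Zic1, Zic2 and Zic4 at D28 with 10 nM alone (-0.172, -0.056 and -0.138), and Zic5, 100 nM against 10 nM, without day 9 (-0.01).

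Samples of the same replicate number did not deviate together (r of -0.125 to 0.17 over 15 pairs of groups), so the numbers were not taken as pairs. With the replicate block the control steps gave 3, 4, 3, 3 and 4 members, as without it, and 5240 to 10006 genes over the 5 steps. TBBPA has 1 library a dose, so no block could be fitted there. Depth limits Zic1 and Zic4 at ES and D4.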
